A study of Mus musculus with 10 samples.

Results

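Constitutive distal regions are stretches of open chromatin that were called in every library of the study and that lie away from the ends of protein-coding genes. Peaks of all 10 lists were merged where they overlapped or touched, and a merged region was kept when every list had a peak in it. It also had to lie more than 1 kb from both ends of every protein-coding gene. Genes were those of the mouse RefSeq annotation (mm10) on assembled chromosomes. Members were thus chosen by the presence of a called peak in each list and by position. The rule kept 2886 regions of the 351411 merged regions. It kept 29.8% of the 9700 regions that were called in all 10 lists. The other 6814 of these lie at or within 1 kb of a gene end and are called boundary regions below. Open chromatin had been profiled by ATAC-seq, in which a transposase cuts accessible DNA and leaves sequencing adapters, in thymic epithelial cells (TEC) sorted from wild-type C57BL/6 mice. The 5 groups held 2 libraries each and were E15 and E17, both embryonic, and 3 sorted fractions of day 6 titled mTEC4, mTEC1 and mTEC2. What these fraction titles stand for is not given, and no label states the event from which day 6 was counted or the number of animals per library.

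Distal open chromatin is best known for enhancers, whose accessibility differs between cell types. A smaller class of distal sites is open in most cell types, and it holds binding sites of the insulator protein CTCF, alternative promoters inside genes, promoters of non-coding RNA genes and the short genes that RNA polymerase III transcribes. In peak lists it also holds repeated sequences, where reads of many copies are placed on few positions. The thymic epithelium supports the maturation of T cells and depends on the transcription factor Foxn1, and regions that stay open across its stages form a background against which stage-specific elements are read.

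The 10 lists held between 40858 and 151646 peaks, and 882163 in all. They carry no read counts, so the depth of each library is unknown, and where a list has no peak the chromatin may still be open. Strengths of peaks in different lists are therefore not compared directly. The fold enrichment of a region's strongest peak was ranked in each list among the same 9700 regions, on a scale from 0 (weakest) to 100 (strongest), which is called the shared percentile. Of 9 TEC marker genes, 3 to 6 had a peak within 1 kb of a gene end in the day 6 libraries, against 8 or 9 in the embryonic libraries. Foxn1 had one in 0 of 6 day 6 libraries and in 4 of 4 embryonic libraries, while Epcam and Krt8 had one in every library. Of 9 T lineage markers, 1 to 7 had a peak in the day 6 libraries and 2 or 3 in the embryonic libraries, and of 3 mesenchyme markers 0 to 2 had one in the day 6 libraries and 3 in the embryonic libraries. Medullary TEC markers (of 6) numbered 3 to 5 at day 6 and 5 or 6 in the embryo. Endothelial markers (of 3) numbered 0 or 1 and 1 or 2, and erythroid markers (of 3) 0 and 1 or 2. For B cell markers (of 3) it was 0 or 1 and 0 to 2, and for macrophage and dendritic markers (of 5) 0 or 1 and 1. The lists held 40858 to 101917 peaks at day 6 and 86237 to 151646 in the embryo. Age, sorted fraction, list length and these markers differ together between the day 6 and the embryonic libraries and cannot be told apart. In bulk samples, fewer cells of a type and less open chromatin per cell cannot be told apart either.

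One class of these regions lies over transcription starts inside or between protein-coding genes. The sequences below are 300-base RefSeq start windows (GRCm38.p6), which run from 250 bases before to 50 bases after a listed start. They are printed 5′ to 3′ on the gene's strand, with capitals for the bases that lie in the common core, the stretch that peaks of all 10 lists covered. They were chosen to show the coding starts with the highest and the next highest of their lowest ranks over the 10 lists (Ccdc15 and Rps6ka2), the coding starts with the lowest p among those whose rank was higher at day 6 (Cirbp and Sbno2), the start of an imprinted non-coding RNA whose rank was lower at day 6 (Kcnq1ot1), and the start of the non-coding RNA Chaserr as a CpG-rich lncRNA start, chosen after its values were seen.
Ccdc15, chr9:37348308-37348607, minus strand: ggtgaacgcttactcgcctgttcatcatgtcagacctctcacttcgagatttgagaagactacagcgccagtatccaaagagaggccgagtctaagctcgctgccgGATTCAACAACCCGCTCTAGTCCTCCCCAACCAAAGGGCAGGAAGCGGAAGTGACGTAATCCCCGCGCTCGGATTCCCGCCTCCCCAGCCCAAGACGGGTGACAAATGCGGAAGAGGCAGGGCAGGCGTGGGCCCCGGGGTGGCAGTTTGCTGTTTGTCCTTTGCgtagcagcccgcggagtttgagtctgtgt
Rps6ka2, chr17:7169865-7170164, plus strand: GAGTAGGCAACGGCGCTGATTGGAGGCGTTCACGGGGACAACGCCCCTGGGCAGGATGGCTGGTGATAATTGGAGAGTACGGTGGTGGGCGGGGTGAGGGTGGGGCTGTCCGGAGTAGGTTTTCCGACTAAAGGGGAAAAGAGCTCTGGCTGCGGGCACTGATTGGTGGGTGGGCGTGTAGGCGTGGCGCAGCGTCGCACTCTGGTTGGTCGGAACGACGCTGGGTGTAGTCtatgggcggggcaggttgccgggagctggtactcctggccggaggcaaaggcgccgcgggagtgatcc
Cirbp, chr10:80167589-80167888, plus strand: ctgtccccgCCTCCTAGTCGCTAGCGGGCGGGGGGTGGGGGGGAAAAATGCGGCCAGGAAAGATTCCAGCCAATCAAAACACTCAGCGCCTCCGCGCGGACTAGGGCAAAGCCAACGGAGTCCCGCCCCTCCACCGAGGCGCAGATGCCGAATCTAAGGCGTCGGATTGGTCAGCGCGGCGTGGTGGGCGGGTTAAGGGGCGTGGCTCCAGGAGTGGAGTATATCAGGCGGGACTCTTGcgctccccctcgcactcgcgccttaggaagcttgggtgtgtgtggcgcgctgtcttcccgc
Sbno2, chr10:80075390-80075689, minus strand: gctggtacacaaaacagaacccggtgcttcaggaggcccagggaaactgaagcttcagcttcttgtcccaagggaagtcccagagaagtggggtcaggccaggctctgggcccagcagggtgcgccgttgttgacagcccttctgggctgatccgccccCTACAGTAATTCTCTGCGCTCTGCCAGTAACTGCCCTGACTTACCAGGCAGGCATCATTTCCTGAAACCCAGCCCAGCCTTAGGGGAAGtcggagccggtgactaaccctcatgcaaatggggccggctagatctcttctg
Kcnq1ot1, chr7:143296498-143296797, minus strand: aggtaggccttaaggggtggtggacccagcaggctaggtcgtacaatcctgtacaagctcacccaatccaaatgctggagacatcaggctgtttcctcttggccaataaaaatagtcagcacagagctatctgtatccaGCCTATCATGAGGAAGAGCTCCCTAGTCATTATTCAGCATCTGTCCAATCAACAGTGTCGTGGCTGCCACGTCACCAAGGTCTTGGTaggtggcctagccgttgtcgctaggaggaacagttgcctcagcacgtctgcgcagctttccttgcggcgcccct
Chaserr, chr7:73558346-73558645, minus strand: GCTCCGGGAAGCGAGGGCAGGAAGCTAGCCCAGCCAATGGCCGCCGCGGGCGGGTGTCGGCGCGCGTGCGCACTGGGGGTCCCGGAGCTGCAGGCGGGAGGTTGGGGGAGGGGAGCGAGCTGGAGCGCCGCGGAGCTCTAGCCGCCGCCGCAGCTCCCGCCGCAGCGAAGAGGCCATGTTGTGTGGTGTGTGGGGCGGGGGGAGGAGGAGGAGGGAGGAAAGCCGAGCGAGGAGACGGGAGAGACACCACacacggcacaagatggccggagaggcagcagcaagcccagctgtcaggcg
The common core covered 165 bases of the Ccdc15 window, 232 of the Rps6ka2 window, 230 of the Cirbp window, 89 of the Sbno2 window, 87 of the Kcnq1ot1 window and 250 of the Chaserr window. The windows of Ccdc15, Rps6ka2, Cirbp and Chaserr held 21 to 30 CpG dinucleotides, and those of Sbno2 and Kcnq1ot1 held 8 and 9. Other members lie over microRNA hairpins. Mature sequences of 3 of them follow, each inside its member, from RefSeq (GRCm38.p6), with the seed (bases 2 to 8) in capitals, for let-7i as a well-studied microRNA and for miR-7671 and miR-7687 because their regions changed rank.
let-7i-5p: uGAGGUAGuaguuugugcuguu
miR-7671-3p: aAGCGGGCaggcggagaaccac
miR-7687-5p: aGGCGGGGaaccugaggcgcaggcu
No seed is shared between these 3 sequences. The let-7i-5p sequence lay outside the common core of its member, and the miR-7671 member had no common core.

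Membership in all 10 lists was rare away from genes. Of 328759 merged distal regions, 0.88% were called in all 10 lists, against 30.1% of 22652 merged boundary regions. Distal regions made up 97.5% of the regions called in a single list, 76.4% of those called in 8 lists and 29.8% of those called in all 10. These counts follow from the rule and are a description. The members lay nearer to genes than other distal regions did, with a median distance to the nearest gene end of 11195 bp, against 41494.5 bp for distal regions called in 1 to 9 lists. Of the members on assembled chromosomes, 18.0% lay more than 50 kb from a gene end, against 45.9% of distal regions in 1 to 9 lists. Members were inside a protein-coding gene span in 1475 cases (51.1%), between genes in 1364 and on scaffolds in 47. Genes on scaffolds were not looked up, so the distance rule removed no scaffold region. On assembled chromosomes 52.0% of members were inside a gene span, against 40.8% of distal regions in 1 to 9 lists. Just outside the 1 kb limit, the 46 members in the next 100 bp had a median merged width of 737 bp, and the lowest of their 10 percentiles within each list had a median of 61.6. The 52 boundary regions in the last 100 bp inside it had 815 bp and 35.7.

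**Figure D1:**
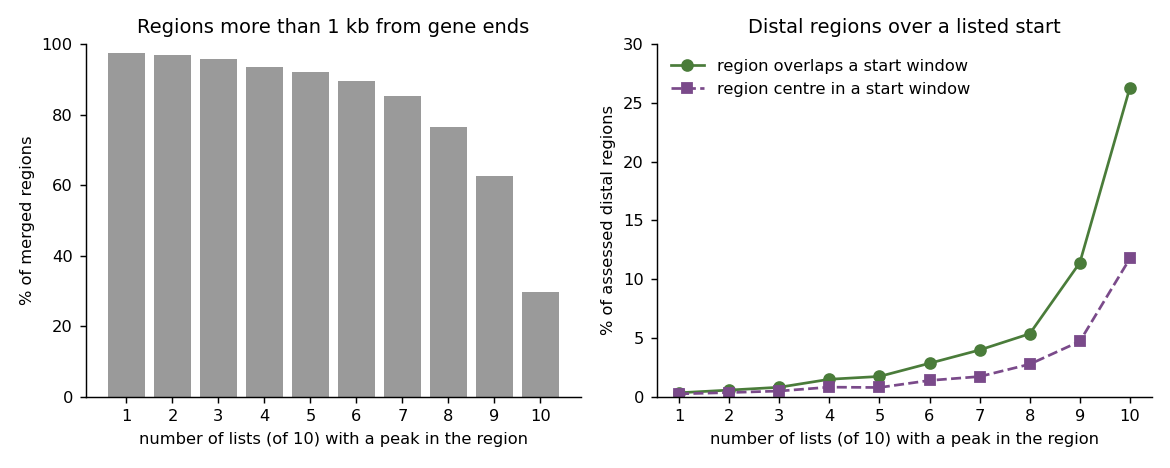
Left, the percent of merged regions that lie more than 1 kb from every gene end (y axis) by the number of lists with a peak in the region (x axis). Right, the percent of assessed distal regions that overlap a listed start window (circles) or whose centre lies in one (squares). The left bars fall to 29.8% at 10 lists, and the right lines reach 26.3% and 11.8%.

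Listed transcription starts were common among the members. Of 2746 members on chromosomes with start windows, 722 overlapped one (26.3%, with a Wilson 95% interval 24.7 to 28.0%, which covers counting error only). The start belonged to a protein-coding gene in 559 members and to a long non-coding RNA (lncRNA) gene alone in 163. The 140 members on chromosome 18 and on scaffolds were not assessed. The share was 0.34% among distal regions called in 1 list, 5.36% at 8 lists, 11.4% at 9 lists and 26.3% at 10. Median merged width moved with it, at 98 bp in 1 list, 416 bp at 8, 426 bp at 9 and 590 bp at 10, and a wider region meets a window more easily. The share of regions whose centre lay in a window, which depends less on width, was 0.25%, 2.77%, 4.71% and 11.8% at the same numbers of lists. Counted from the starts, 669 of 3633 protein-coding windows that lie more than 1 kb from every gene end fell in a member (18.4%), against 268 of 10015 such lncRNA windows (2.7%).

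The common core sat just before the start. In the 676 members with both a common core and a listed start, the core's centre lay a median of 42.8 bp upstream of the nearest listed start, with the middle 50% of members between 98.0 bp upstream and 4.1 bp downstream. It lay within 150 bp of the start in 77.7% and upstream of it in 73.2%. The windows reach farther upstream than downstream, which favours upstream positions. Members with a coding start lay within 150 bp in 80.6% of cases, and those with an lncRNA start in 69.2%.

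**Figure D2:**
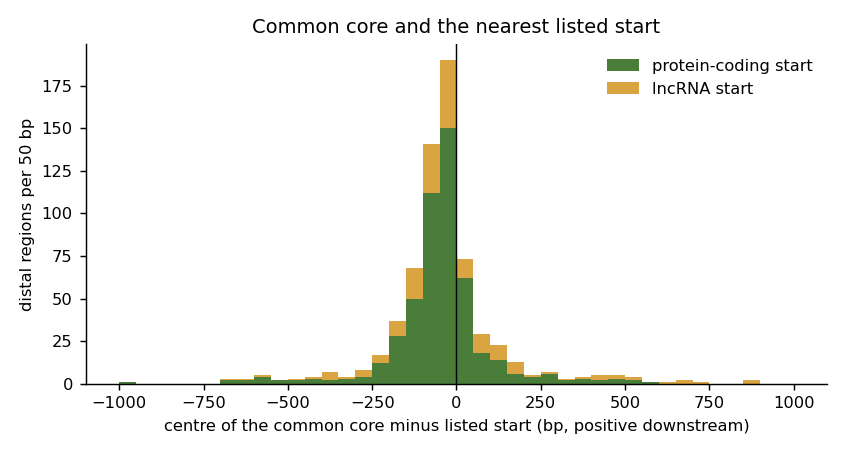
Number of distal regions per 50 bp (y axis) by the position of the common core's centre relative to the nearest listed start (x axis, bp, positive downstream of the start), stacked by the kind of start. The bars are highest in the 100 bp before the start, and the median is 42.8 bp upstream.

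These internal starts resembled gene-end promoters in base composition. Coding start windows in members held a median of 24 CpG dinucleotides and 64.0% G and C. The 2890 other coding windows more than 1 kb from gene ends held 6 CpG and 52.3%, and the 7434 windows in boundary regions called in all 10 lists held 24 CpG and 63.3%. The lncRNA windows in members held 20 CpG, against 3 in the 9729 other lncRNA windows away from gene ends. Short motifs were searched as exact letters on both strands, and a match is a description of the letters only. GGGGCGGGG, the core of KLF and SP factor sites, was found in 26.6% of coding windows in members, against 8.41% of other internal coding windows and 11.45% of all 32851 windows. CCGGAAGT, an ETS factor core, was found in 7.47% of coding windows in members, against 1.66% and 3.89%. GCATGCGC of NRF1 was found in 5.83%, against 1.11% and 2.71%. CCAATCA of NF-Y was found in 13.75%, against 5.33% and 7.82%. The A- and T-richer TGANTCA of AP-1 ran the other way, at 3.89% of coding windows in members, against 8.89% of other internal coding windows and 7.81% of all windows. TGTTTAC, a forkhead core, was found in 2.09%, against 3.36% and 3.65%. CAGGGGGCG of CTCF was found in 4.93%, against 1.35% and 1.67%. The 7434 windows in boundary regions called in all 10 lists stood near the coding windows in members. They held the KLF and SP letters in 26.69%, ETS in 9.93%, NRF1 in 6.58% and NF-Y in 14.21%. There AP-1 was at 3.26%, forkhead at 2.19% and CTCF at 3.93%, so these shares are not particular to the members. The 6 printed windows include CCAATCA or its reverse complement in Cirbp, Kcnq1ot1 and Rps6ka2, and GGGGCGGGG and AAGATGGC, a YY1 core, in Chaserr. Base composition differed between the same sets of windows, and its part in the motif shares was not tested. Some genes have several overlapping windows, so windows are not independent.

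Relative strength differed widely among the members, and a small set stood at the top of every list. Within its own list, a member's strongest peak had a median percentile of 86.9, and the lowest of its 10 values had a median of 53.4. In 91 members (3.15%) the peak was at or above the 99th percentile of every list, against 3 boundary regions. These 91 regions were narrow, with a median merged width of 200 bp against 601 bp for the other members, and their median fold enrichment was 25.8 against 6.13. Of these, 1 of the 86 assessed ones had a listed start, 25 were inside a gene span, and their median distance to a gene end was 53478 bp. The strongest was chr2:69355538-69355665, 128 bp wide and 12922 bp from Abcb11, the bile salt export pump gene, with folds between 61.7 and 70.1 in the 10 lists. It was followed by chrX:143483005-143483115 near the kinase gene Pak3, with folds between 49.0 and 64.3, and by chr8:71433088-71433172 near Ankle1, with folds between 39.6 and 54.8. The 7 next regions of that order lay near Rfc3, Diaph3, Nxph1, Chst2, Rab10 and Plk2 and on an unplaced scaffold. Of the 10 strongest, the 9 on assembled chromosomes lay between genes, with no listed start. The member farthest from genes, chr1:102628192-102628335 at 2137593 bp from Cntnap5b, was of the same kind, at 144 bp wide with folds between 18.5 and 47.4. Whether such narrow and strong peaks lie in repeated or poorly mappable sequence was not assessed, since no genome sequence was used.

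Most members were single peaks with a short shared stretch. In 2373 members (82.2%) every list had exactly 1 peak, and no list had more than 4 peaks in a member. A common core was present in 2687 members (93.1%), with a median length of 99 bp, against 96.7% of boundary regions with a median of 159 bp. The remaining 199 members were joined by chains of peaks and held no base that all 10 lists covered. Of the 5 widest cores, the first 3 were weak in rank. The region chr1:24611560-24616152 had a core of 4575 bp with folds between 2.24 and 2.73 and overlaps the pseudogenes Gm10222 and Gm10925. The region chr17:39843028-39848803 had a core of 4140 bp with folds between 1.85 and 2.19 and overlaps Rn18s-rs5, a pseudogene named after 18S ribosomal RNA. The third, chr9:3023482-3025121, lies in a run of 21 members within chr9:3000011-3037452. The next, in Myo3a and near Gm2244, had cores of 1524 and 1378 bp and were higher at day 6, with mean shared percentiles of 48.8 and 72.9 at day 6 and 13.8 and 17.1 in the embryo (limma adjusted p = 0.0289 and 0.00563, a test described below). Runs of members, with gaps of at most 20 kb, held 109 members in 14 runs of 4 or more, while 82.5% of members lay alone. The largest run had 22 members within 54942 bp of the unplaced scaffold JH584304. No gene distance was taken on scaffolds, so all their regions count as distal. Of 726 such regions, 6.47% were called in all 10 lists, against 0.5 to 1.22% on each of chromosomes 1 to 19 and X. Near-identical copies share reads, so the values of regions in such runs are uncertain.

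Peaks in the members were narrower at day 6. The median width of a member's strongest peak was 160.0 and 214.0 bp in the mTEC4 libraries, 198.0 and 227.0 bp in the mTEC1 libraries and 246.0 and 168.5 bp in the mTEC2 libraries, against 387.0 and 395.0 bp in the E15 libraries and 394.0 and 468.0 bp in the E17 libraries. The groups did not overlap, with a mean of 202.2 ± 33.5 bp at day 6 (SD, n = 6) and 411.0 ± 38.2 bp in the embryo (SD, n = 4). The exact permutation test over the 210 arrangements of the libraries gave p = 0.00476, two-sided, the smallest it can give, and the same after adjustment over 3 measures. Boundary regions moved in the same direction, and peaks were narrower in distal than in boundary regions in 10 of 10 libraries, with a mean difference of -152.85 bp (exact sign-flip p = 0.00195, the smallest possible). The lists held 40858 to 101917 peaks at day 6 and 86237 to 151646 in the embryo, and the part of list length in these widths was not tested.

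Rank moved apart between the members with and without a listed start. On the shared percentile, members without a start had library medians of 30.4 to 43.4 at day 6, against 50.6 to 66.6 in the embryo. Members with a start had 44.8 to 48.2 at day 6, against 42.6 to 43.6 in the embryo. The median of members without a start minus that of members with one was -10.15 ± 4.87 at day 6 (SD, n = 6) and 14.62 ± 8.78 in the embryo (SD, n = 4), and the sign was negative in 6 of 6 and positive in 4 of 4 libraries. The difference of -24.77 had an exact permutation p of 0.00476. Distal minus boundary medians were -14.48 ± 4.28 at day 6 (SD, n = 6) and 2.94 ± 6.55 in the embryo (SD, n = 4), a difference of -17.42 with the same exact permutation p. Both tests on the shared percentile were added to the planned ones, and their p was not adjusted. Within each library's own list, distal regions ranked below boundary regions in 8 of 10 libraries, with a mean difference of -2.06 percentile points, which did not pass the exact sign-flip test (p = 0.0898).

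**Figure D3:**
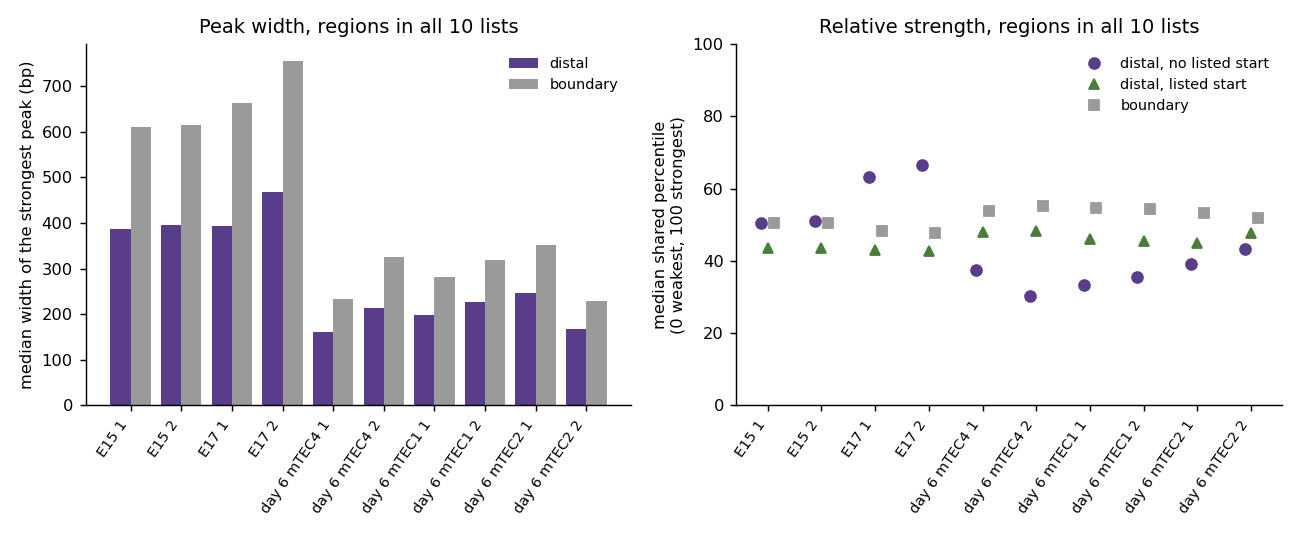
By library, from E15 to day 6: left, the median width of the strongest peak (y axis, bp) in distal and boundary regions; right, the median shared percentile (y axis) of distal regions without and with a listed start and of boundary regions. Distal widths are 160.0 to 246.0 bp at day 6 and 387.0 to 468.0 bp in the embryo, and distal regions without a start lie below those with one in the 6 day 6 libraries and above them in the 4 embryonic libraries.

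Region by region, many members changed rank between day 6 and the embryo. The strength ranks of all 9700 regions were fitted with limma on normal scores, and a region was called where the Benjamini-Hochberg adjusted p over all of them was under 0.05. Of the members, 389 ranked higher at day 6 (13.5%) and 773 lower (26.8%), 1162 in all. The background over all 9700 regions was 16.4% higher and 14.9% lower, 31.3% in all. Ranks are relative, so a call says how a region stood among these regions and not that it opened or closed. When distal regions were ranked among themselves, 561 were higher and 508 lower, so the split depends on the boundary regions in the ranking. Without E15 replicate 1, E15 replicate 2 or E17 replicate 2 the count of called members was 765, 750 and 687. Peak names in the mTEC4 and mTEC1 lists lack a tag that the names in the other lists carry, and with mTEC2 as the only day 6 fraction 306 members were higher and 561 lower.

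The shares called in each direction differed between the classes of members, as a description with no test. Of 2024 members without a listed start, 236 were higher (11.7%) and 667 lower (33.0%). Of 559 with a coding start, 102 were higher (18.2%) and 54 lower (9.7%), and of 163 with an lncRNA start 27 were higher and 28 lower. Width moved with the calls. Members called higher had a median width of 848 bp and those called lower 404 bp, and merged width is set in part by the same peaks. Among the narrowest of 5 width classes, 85 to 303 bp, 8.1% were higher and 46.2% lower. In the widest class, 982 to 5776 bp, 28.1% were higher and 3.6% lower. Boundary regions of the same widths gave 5.4% and 44.6% in the narrow range and 30.5% and 2.6% in the wide one. Within width classes, from the narrowest to the widest, lower calls were 252 of 532, 196 of 489, 128 of 419, 78 of 327 and 13 of 257 members without a start, against 7 of 22, 26 of 66, 25 of 125, 16 of 228 and 8 of 281 members with one. The share was thus lower with a start in each class, by little in the second. Higher calls were 7.9%, 8.2%, 10.3%, 12.8% and 26.8% without a start, against 9.1%, 9.1%, 9.6%, 12.3% and 28.8% with one. Lower calls were most frequent in the narrow class and higher calls in the wide class, in distal and in boundary regions. Of the 91 members at the top of every list, 1 was higher and 4 were lower, and their choice by a high rank in every list left little room for calls.

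**Figure D4:**
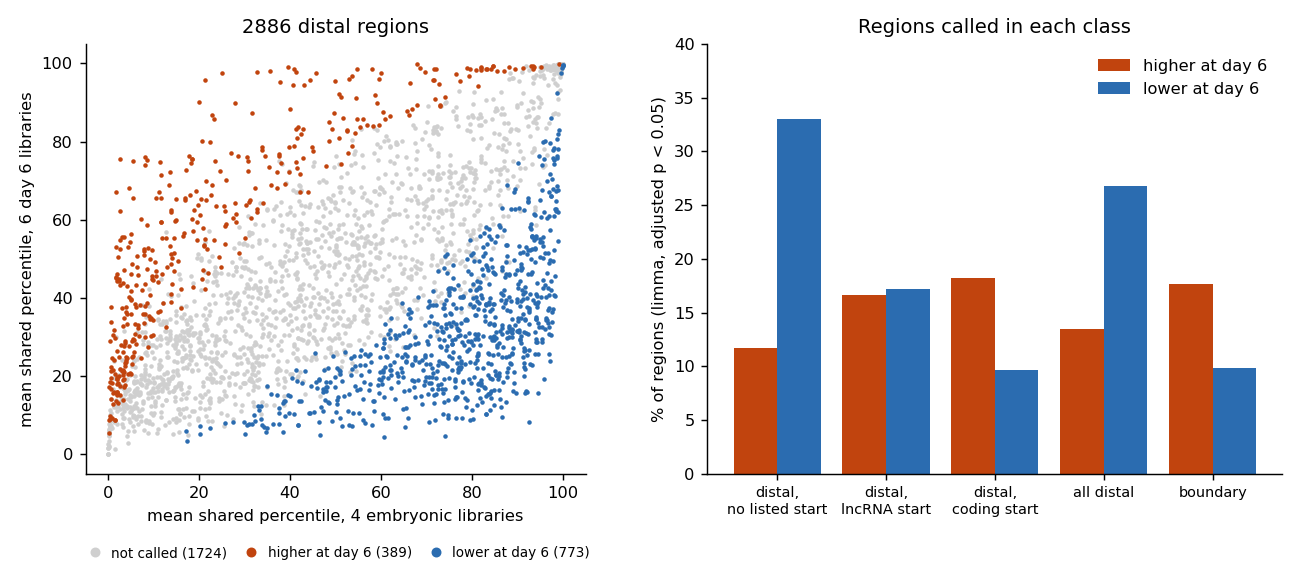
Left, each distal region by its mean shared percentile in the 6 day 6 libraries (y axis) and in the 4 embryonic libraries (x axis), coloured by call. Right, the percent of regions called higher or lower at day 6 (limma, adjusted p under 0.05) by class. Lower calls are 33.0% of distal regions without a listed start and 9.7% of those with a coding start.

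Among the regions with the lowest p in the higher direction, 3 of 8 lay inside Tex14, a gene needed for intercellular bridges of germ cells. The region chr11:87426685-87427558 had shared percentiles of 97.9 and 96.3 in the mTEC4 libraries, 98.3 and 98.6 in the mTEC1 libraries and 97.3 and 98.6 in the mTEC2 libraries, against 23.5 and 23.7 at E15 and 41.1 and 42.5 at E17. The groups were far apart (normal score difference 2.51 ± 0.21 SE, limma adjusted p = 0.000378). Its neighbours chr11:87422570-87423577 and chr11:87448261-87449412 had day 6 means of 98.1 and 95.8, against 35.6 and 44.3 in the embryo. All 6 members in the Tex14 span were called higher, with a mean of 96.2 at day 6 and 52.5 in the embryo. Each overlaps a gene that RefSeq lists as small nuclear RNA, among them Rnu1a1 (U1) and Rnu3b1 to Rnu3b4 (U3). The calls at Rnu3b1 and Rnu3b4 were each lost under 1 of 16 alternatives, and the call at Rnu3b2 under 5. Near-identical copies share reads, so agreement among the Rnu3b members is not independent. The internal start of Cirbp, which encodes a cold-inducible RNA-binding protein, ranked between 60.2 and 93.8 at day 6, with a median of 74.0, against 10.7 and 15.9 at E15 and 2.5 and 3.2 at E17 (limma adjusted p = 0.000553). The internal start of Sbno2 ranked between 23.3 and 80.5 at day 6, with a median of 46.8, against 2.8 and 0.6 at E15 and 4.1 and 0.8 at E17 (limma adjusted p = 0.000556). At both, day 6 and embryonic values did not overlap. These are among the windows printed above, the Cirbp window with 29 and the Sbno2 window with 8 CpG dinucleotides. A region in the span of Actb, the cytoplasmic actin gene, had a median of 61.8 at day 6 and values between 2.8 and 8.6 in the embryo. Regions near Gng4, a G protein subunit gene, and in Col23a1, a collagen gene, had day 6 means of 97.5 each, against 45.6 and 24.9 in the embryo. The embryonic mean of the Col23a1 region was 15.4 without E17 replicate 1.

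The 8 regions with the lowest p in the lower direction had no listed start. The region chr17:49309002-49309463, 118887 bp from Mocs1, ranked between 0.8 and 19.5 at day 6, with a median of 8.2, against 95.2 and 90.8 at E15 and 92.8 and 91.7 at E17 (normal score difference -3.05 ± 0.28 SE, limma adjusted p = 0.000378). A region in Egflam, which encodes an extracellular matrix protein, had a mean of 19.3 at day 6 and 95.7 in the embryo. A region near Impdh1, an enzyme of guanine nucleotide synthesis, had 30.4 at day 6 and 97.4 in the embryo. The others lay in or near Atp10a, Nyap2, Cga, Xpnpep3 and Mmp2, with means of 8.8 to 25.7 at day 6 and 79.6 to 97.0 in the embryo. All 8 were between 237 and 714 bp wide with cores of 37 to 98 bp. All 16 named regions kept their direction and their call under all 16 alternatives, with adjusted p of at most 0.0344. Their choice by the lowest p favours this, since the alternatives share libraries with the main fit. Of all 1162 called members, 55.9% to 97.5% kept their call, depending on the alternative.

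**Figure D5:**
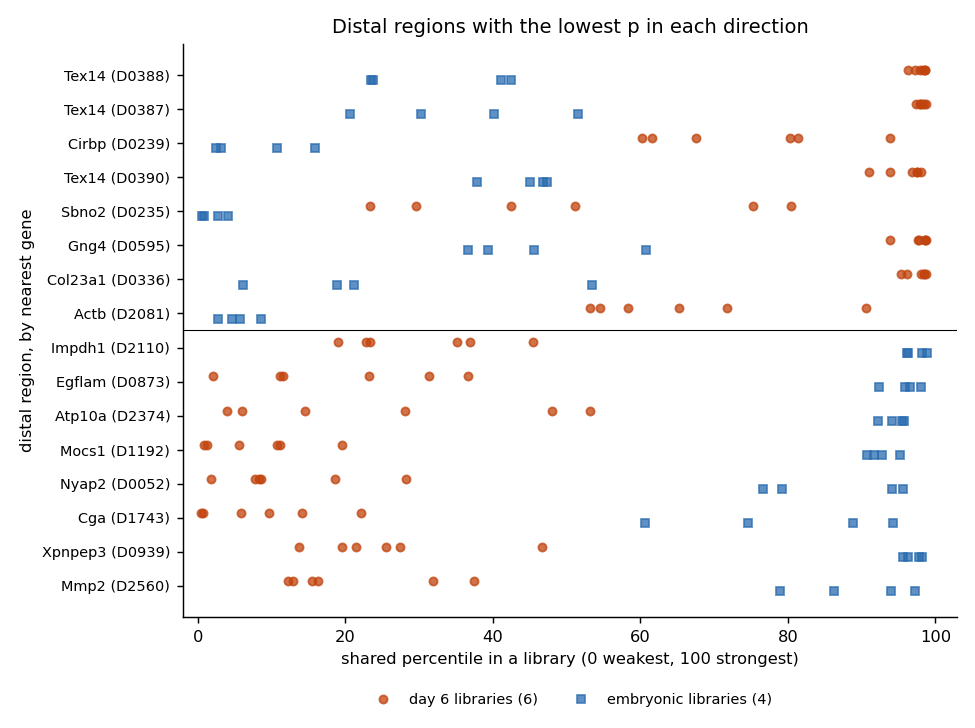
Shared percentile (x axis, 0 weakest to 100 strongest) of the 8 regions with the lowest p in each direction (y axis, by nearest gene), with 1 circle per day 6 library and 1 square per embryonic library. Circles and squares do not overlap in any of the 16 regions, which their choice by a low p favours.

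Small RNA genes were a further class of members, looked at after values had been seen. Of 971 genes far enough from gene ends that RefSeq lists as small nuclear RNA (snRNA), 35 lay in a member (3.6%). That class includes the Rnu3b genes. The 35 members over them were 1.21% of all members, against 0.013% of distal regions in 1 to 9 lists. Wider regions meet a gene more easily, and median width was 590 bp for members and 98 bp for distal regions in 1 list. Transfer RNA genes, read by RNA polymerase III, lay in members in 57 of 359 cases (15.88%), in 36 members. Of the snRNA members, 19 were higher and 1 lower at day 6, beside a background of 16.4% and 14.9%. Only 5 of the 35 were higher when -log10 q was used as the strength. Their median width was 993 bp, and wide regions were called higher more often. A run of 6 members at chr12:54710271-54738829, each over an snRNA gene, had a mean of 80.9 at day 6 and 15.4 in the embryo, and all 6 were higher. Rn7sk, the 7SK RNA that restrains transcription elongation, was not called, at 72.1 at day 6 and 73.7 in the embryo. Of the transfer RNA members, 6 were higher and 2 lower. The 7 members nearest Gm40363 on chromosome 6 overlap no listed small RNA gene. All were higher, with means of 56.5 at day 6 and 3.1 in the embryo. The region over Rn4.5s nearby had 53.2 at day 6 and 1.7 in the embryo (limma adjusted p = 0.00283). Near-identical copies of small RNA genes share reads, so these values are uncertain. After starts and small RNA genes, 1953 of all members (67.7%) overlapped neither. A further 137 (4.7%) overlapped no small RNA gene and were not assessed for a start.

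Of the members over microRNA hairpins, that of let-7i, a member of the let-7 family, ranked low in all libraries, at 4.5 to 26.9 at day 6, with a median of 12.4, against a mean of 4.7 in the embryo, and was not called (limma adjusted p = 0.0986). The member at Mir210, the gene of a hypoxia-induced microRNA, overlaps one end of the hairpin and neither mature sequence. It had means of 74.1 at day 6 and 75.3 in the embryo and was not called (limma adjusted p = 0.955). The Mir7671 region near Irf1 was higher, between 11.8 and 31.5 at day 6, with a median of 22.5, against 0.6 and 1.2 at E15 and 3.6 and 7.5 at E17 (limma adjusted p = 0.00382). The Mir7687 region in Gse1 was higher, with means of 16.8 at day 6 and 0.6 in the embryo (limma adjusted p = 0.00745), a call lost with mTEC2 as the only day 6 group. The Mir713 region was lower, with means of 47.0 at day 6 and 72.6 in the embryo (limma adjusted p = 0.0368), a call lost under 9 of 16 alternatives.

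Among genes of thymus and epithelium, a member within 50 kb was found for 4 of 12 thymic epithelial identity genes, 6 of 14 thymus organogenesis factors, 2 of 13 medullary maturation genes and 9 of 16 epithelial genes, against 5205 of all 21887 protein-coding genes (23.8%). The internal Pax9 start, in the gene of a factor of pharyngeal pouch development, was not called, at 36.0 to 63.9 at day 6, with a median of 55.3, against 44.7 and 53.1 at E15 and 44.4 and 44.7 at E17 (limma adjusted p = 0.619). A region in Prss16, the thymus-specific serine protease gene, ranged from 2.4 to 63.3 at day 6 and from 36.0 to 58.5 in the embryo and was not called. The region 1712 bp from Dll4, the Notch ligand of thymic epithelium, had means of 18.7 at day 6 and 41.6 in the embryo (limma adjusted p = 0.0495), a call lost under 13 of 16 alternatives. No member lay near Foxn1. The nearest, 241738 bp away at an internal start of Fam222b, had means of 47.0 at day 6 and 86.7 in the embryo (limma adjusted p = 0.0526). The nearest members to Aire and Trp63 lay 72318 and 165429 bp away, and the one nearest Trp63 was lower, at 13.6 at day 6 and 58.4 in the embryo (limma adjusted p = 0.0132, lost under 6 of 16 alternatives). Its day 6 mean was 6.5 without mTEC2 replicate 2, which stood at 48.8.

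Immediate-early and NF-kB pathway genes had members within 50 kb in 9 of 16 and 8 of 18 cases. Regions near Fos and Zfp36 and in Nfkbiz were higher, with means of 62.0, 24.6 and 61.5 at day 6, against 32.6, 0.9 and 28.1 in the embryo (limma adjusted p = 0.0282, 0.0165 and 0.0157). These calls were lost under 8, 5 and 5 of 16 alternatives. The Zfp36 mean at day 6 was 12.3 without mTEC2 replicate 2, which stood at 86.1. A region 3353 bp from Nfkbie, an inhibitor of NF-kB, was lower, with means of 44.2 at day 6 and 81.7 in the embryo (limma adjusted p = 0.0127, lost under 4 of 16 alternatives). Housekeeping genes had members within 50 kb in 6 of 11 cases.

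Of 29 imprinted genes, 8 had a member within 50 kb. The Kcnq1ot1 start, from which a non-coding RNA that silences neighbouring genes on the paternal chromosome is made, ranked between 16.0 and 65.6 at day 6, with a median of 31.7, against 83.5 and 78.6 at E15 and 73.0 and 87.1 at E17 (limma adjusted p = 0.013, lost under 5 of 16 alternatives). The region in Impact was higher, at 74.7 at day 6 and 11.3 in the embryo (limma adjusted p = 0.00268), a call kept in all 16. The nearest member to H19 lay 341170 bp away. Of 58 clustered protocadherin genes, 22 had a member within 50 kb. Neighbouring genes of a cluster can share a member, so these genes are not independent. The member nearest the gamma cluster, in Diaph1, had means of 42.2 at day 6 and 97.4 in the embryo (limma adjusted p = 0.00176). Olfactory receptor genes had one for 38 of 1117 (3.4%).

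For genes of other cell types, a member lay within 50 kb of 3 of 15 thymocyte genes, 3 of 10 macrophage and dendritic genes, 3 of 6 B cell genes, 3 of 7 endothelial genes, 1 of 9 mesenchyme genes and 0 of 8 erythroid genes, beside 23.8% of all protein-coding genes. The thymocyte, mesenchyme and erythroid shares were below that of all genes. The macrophage and dendritic, B cell and endothelial shares were above it. These lists hold only 6 to 15 genes, and the differences were not tested. The region 30632 bp from Tcf7, a T lineage factor, ranked between 1.3 and 53.5 at day 6, with a median of 7.2, against 94.5 and 83.5 at E15 and 92.9 and 96.6 at E17 (limma adjusted p = 0.00128). Its day 6 mean was 16.3, and 8.8 without mTEC2 replicate 2. It had no base covered in all 10 lists. The other thymocyte genes with a member were not called. The region nearest Cd4 had means of 34.5 at day 6 and 10.9 in the embryo (limma adjusted p = 0.0763), and the region nearest Lck had 23.8 at day 6 and 51.4 in the embryo (limma adjusted p = 0.0591). The region in the Pdgfra span, a mesenchymal receptor gene, had means of 15.1 at day 6 and 71.6 in the embryo (limma adjusted p = 0.00463, lost with mTEC2 as the only day 6 group). A peak within 1 kb of a Pdgfra end was present in 0 of 6 day 6 and 4 of 4 embryonic libraries. The parts of mesenchymal cells and of list length were not tested.

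Between single stages and fractions, no region was called. E17 minus E15, mTEC4 minus mTEC2, mTEC1 minus mTEC2 and mTEC4 minus mTEC1 each gave 0 of 9700 regions (limma, 0%), with smallest adjusted p of 0.525, 0.108, 0.162 and 0.262. At an unadjusted p under 0.05 they gave 208, 469, 341 and 320 members, which are 7.21%, 16.25%, 11.82% and 11.09% of the members. Over all 9700 regions they gave 464, 1242, 874 and 966, which are 4.78%, 12.8%, 9.01% and 9.96%. Leaving out mTEC2 replicate 1 gave 19 members for mTEC4 minus mTEC2, of 30 regions. That fit sets mTEC4 against mTEC2 replicate 2 alone, the shortest list, and assumes that this library varies like the other groups. These groups hold 2 libraries each, so a missing call does not show that the members stood alike.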

How the data were processed

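Open chromatin was measured by ATAC-seq in 10 libraries, 2 per group, grouped by the labels. Adapter trimming, alignment, duplicate handling and peak calling used cutadapt, Bowtie2, Picard and MACS2 with mm10, per the submitters' processing notes, which give no versions or order. The deposited broad peak lists were called per library. Each peak carries the authors' fold ratio over the caller's background, a deposited -log10 p, a deposited -log10 q and a deposited score, which is 10 times the -log10 q. Read counts were not used here, so depth is unknown and no interval on a single peak can be given.

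Peaks were merged where they overlapped or touched, and distances were taken to RefSeq protein-coding genes (GRCm38.p6) on assembled chromosomes only. The strongest peak by fold in each region and list was ranked among the 9700 regions called in all lists. Ranks were turned to normal scores and fitted with 5 group means in limma 3.58.1 (R 4.3.3), Benjamini-Hochberg adjusted over 9700 regions, with a threshold of 0.05. Library measures were tested by exact permutation in Python 3.11.15 (numpy 2.4.6, pandas 2.3.3). The Wilson interval used scipy 1.17.1, and figures used matplotlib 3.10.9. The scripts were tested on simulated data. The labels do not say that replicates came from separate animals, so p-values measure the spread between these libraries.

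Named regions were the 10 with the highest lowest rank, the 5 widest cores, the 5 farthest from genes, the 8 with the lowest p in each direction, microRNA hairpin members, the genes with most members, up to 4 genes per list and 7 always named genes. The members and lists were chosen with earlier results of these data known. Alternatives were other strengths, filters, distances, a replicate block and leaving out each library. No genome sequence was used, so distal sequence was not searched. Starts on chromosome 18 and on scaffolds were not analysed. The result of 1 listed gene is not reported here.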

Additional observations from a re-analysis of the deposited data

Results flagged for a closer look

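Some libraries stood apart from the others of their age by the size of the gap to the nearest library, a test that chance passes in about 1 in 20 groups, and 50 groups were tested. E17 replicate 2 had the widest distal peaks of the embryonic libraries, with a median of 468 bp, and it also had the longest list. E17 replicate 1 had the lowest median fold of the distal regions in the embryo, at 7.05. In mTEC2 replicate 2, 7.4% of peaks lay in members, the highest share at day 6, and its list was the shortest. At the region near Gng4, mTEC1 replicate 2 had a shared percentile of 93.8, the lowest at day 6, against a day 6 median of 98.2.

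Other measures differed between day 6 and the embryo by an exact permutation test over libraries. The distal minus boundary peak width was -88.0 bp at day 6 and -250.1 bp in the embryo, a difference of 162.1 bp. The distal minus boundary percentile within each list was -4.28 at day 6 and 1.26 in the embryo, a difference of -5.54. Members without minus with a listed start differed by -24.77 shared percentile points between the ages, and distal minus boundary regions by -17.42. Each had an exact permutation p of 0.00476, the smallest possible, and age, fraction and list length were not separated.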

How the results depend on the processing

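The number of members depended on the rule. It was 1470 when each list had to cover at least 25% of a region, 1555 more than 10 kb from gene ends, 1669 and 409 with a -log10 q of at least 2 and 5, and 1852 with lists of equal length. Leaving out 1 library gave 2901 to 4174, the highest without mTEC4 replicate 1. The share with a listed start ranged from 18.0 to 31.2%. Day 6 minus embryonic calls over all regions were 1704 with -log10 q as the strength and 1955 with exact permutation per region, and 1502 to 3317 without 1 library. The lowest were the fits without E15 replicate 1 (1722), E15 replicate 2 (1640), E17 replicate 1 (1822) and E17 replicate 2 (1502). Among members the count was 736 with exact permutation and 687 to 1266 without 1 library. With -log10 q as the strength 650 of the 1162 called members kept their call, and 20 turned direction. Coding starts higher at day 6 numbered 37 with -log10 q, against 102. The cause of these changes was not tested. For mTEC4 minus mTEC2 the count was 0 to 30 without 1 library. The distal minus boundary percentile was -1.94 with -log10 q (exact sign-flip p = 0.0488) and -2.69 to -1.58 without 1 library, passing without either E17 replicate (p = 0.0312). Same-numbered libraries did not deviate together (r between -0.104 and 0.025), and the replicate block gave 1144 members and 2902 regions. The crossed pairing of mTEC4 and mTEC2, added after the data were seen, gave 0 calls. Motif counts in member sequence were not run. Depth is unknown, so absent peaks and narrow widths cannot be read as closed chromatin.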
